A study of Mus musculus with 8 samples.

Results

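Integrin chains and the cytoskeletal genes of the osteoclast podosome were examined in RNA from the parietal bone, a flat bone of the skull roof, of mouse pups. The set held 39 of the 27133 genes in the count table, chosen by symbol and by a written list. It comprised 26 integrin chains (18 alpha chains and 8 beta chains) and 13 kinases, adaptors and actin regulators, namely Src, Ptk2b, Vav3, Arhgef6, Fermt3, Tln1, Pstpip1, Pstpip2, Sh3pxd2a, Was, Wipf1, Cttn and Gsn. Genes whose names only resemble an integrin's, such as Itgb1bp1, Itgb2l and Itgbl1, were not members. The study compared C57BL6J pups given a control isotype antibody with pups given an antibody that blocks CSF1R, the receptor through which CSF1 keeps monocytes, macrophages and osteoclasts alive. Antibody was delivered transcranially on postnatal days 2, 4 and 6, the pups were perfused, and the bone was collected on postnatal day 9. The labels name no engineered allele, and both groups carried the same strain background and the same handling, so the antibody was the labelled difference. Libraries keep the number of their title: isotype 2, 3, 4 and 5, and anti-CSF1R 7, 8, 9 and 10. Whether each library came from its own pup is not stated outright in the labels, and the p-values then reflect only how these libraries vary.

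Integrins are cell-surface receptors built from an alpha and a beta chain that link the extracellular matrix, or a ligand on another cell, to actin. A resorbing osteoclast attaches to bone through a ring of podosomes, actin-rich contacts in which the alphaV-beta3 integrin (Itgav and Itgb3) signals through the kinases Src and Pyk2 (Ptk2b) to exchange factors that remodel actin, while talin (Tln1) and kindlin-3 (Fermt3) switch the integrin on. The actin core of a podosome is assembled by the Wiskott-Aldrich protein (Was) with its partner Wipf1, cortactin (Cttn) and gelsolin (Gsn). Macrophages and other leukocytes use podosomes too, together with integrins of the beta2 family, whereas osteoblasts and stromal cells rely mainly on beta1 chains.

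Promoter sequence is shown for 4 members. They are Pstpip1 and Itgax, which passed the test described below, Was, the gene of the Wiskott-Aldrich protein, and Itgam, the neighbour of Itgax on chromosome 7. They were picked after their values had been seen. Each run is the 250 bases before the annotated start, 5′ to 3′ on the strand of the gene, from RefSeq on GRCm38.p6. Capitals mark matches to GAGGAAG or AGGAAGT, spellings bound by PU.1 and other ETS factors, to TGTGGTT (RUNX factors) or to TGAGTCA (AP-1), searched on both strands. The spellings GAGGAAG and AGGAAGT can overlap each other. The window of Pstpip1 is chr9:56089726-56089975 (plus strand), that of Was is chrX:8090492-8090741 (minus strand), that of Itgam is chr7:128062390-128062639 (plus strand) and that of Itgax is chr7:128129300-128129549 (plus strand).
Pstpip1: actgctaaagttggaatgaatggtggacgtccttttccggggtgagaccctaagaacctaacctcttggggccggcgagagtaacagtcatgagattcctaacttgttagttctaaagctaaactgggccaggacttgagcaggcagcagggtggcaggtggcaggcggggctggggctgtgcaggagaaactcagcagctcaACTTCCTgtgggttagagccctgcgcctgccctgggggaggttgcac
Was: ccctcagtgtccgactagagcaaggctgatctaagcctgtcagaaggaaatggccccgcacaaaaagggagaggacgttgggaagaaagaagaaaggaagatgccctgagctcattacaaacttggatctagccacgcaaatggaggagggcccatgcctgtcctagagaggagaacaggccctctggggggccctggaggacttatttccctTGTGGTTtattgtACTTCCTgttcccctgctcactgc
Itgam: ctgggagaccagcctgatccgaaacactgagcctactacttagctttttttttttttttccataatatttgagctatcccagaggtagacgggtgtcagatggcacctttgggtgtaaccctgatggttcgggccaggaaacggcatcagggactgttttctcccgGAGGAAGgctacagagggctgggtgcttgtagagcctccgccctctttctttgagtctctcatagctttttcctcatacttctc
Itgax: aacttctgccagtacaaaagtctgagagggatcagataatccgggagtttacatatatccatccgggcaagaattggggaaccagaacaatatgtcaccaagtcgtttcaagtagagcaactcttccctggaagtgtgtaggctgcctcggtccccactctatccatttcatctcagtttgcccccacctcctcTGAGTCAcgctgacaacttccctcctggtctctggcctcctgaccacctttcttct

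The Pstpip1 window held ACTTCCT, the reverse complement of AGGAAGT, 47 to 41 bases before the start. The Was window held the same letters 24 to 18 bases before the start and TGTGGTT 37 to 31 bases before it. Itgam had GAGGAAG 84 to 78 bases before its start, and Itgax had TGAGTCA 56 to 50 bases before its start. Of the 39 members, 27 had a window in the table, 36 windows in all. AGGAAGT was found in 10 of those 36 windows (27.8%) and in 7.69% of all 32851 windows, and GAGGAAG in 8 of 36 (22.2%) and in 10.6% of all windows. The AGGAAGT genes were Pstpip1, Was, Arhgef6, Gsn, Itga1, Itga11, Itgav, Itgb6, Vav3 and Wipf1. Only Pstpip1 and Was of these were lower at an unadjusted p under 0.05 in the edgeR test described below. The GAGGAAG genes were Gsn, Itga11, Itga2b, Itgam, Itgav, Itgb6, Src and Wipf1, of which only Itgam and Src were lower at that p. Members without a window could not be searched, among them Itgb3, Itgb2, Itgad and Ptk2b, which were also lower at that p. TGTGGTT and TGAGTCA were each in 2 of 36 windows (5.56%), against 4.4% and 4.46% of all windows. A match describes the letters in the window and is no evidence of binding.

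Each library held 57.5 M to 69.1 M counts, of which members took 0.408% to 0.435%. Isotype 3 and 4 stood apart from the other 6 libraries: their Spearman correlation across genes was 0.916 to 0.943 with those 6, while those 6 correlated with each other at 0.987 to 0.997 and the pair at 0.989. The Spearman correlation across genes of a gene's deviation from its median with its GC content was 0.650 and 0.640 in isotype 3 and 4 and ran from -0.371 to -0.029 in the others. The main results are therefore given on all libraries, with isotype 2 and 5 alone as the controls, and after an offset for GC content and transcript length. The summed osteoblast markers (such as Col1a1 and Bglap), which define the labelled tissue, lay between 92423 and 157493 CPM (counts scaled to a common library total) in isotype libraries. In anti-CSF1R libraries the sums lay between 77279 and 94972 CPM. Col1a1 made up most of each sum (104519 CPM in isotype 2 and 73608 CPM in anti-CSF1R 8, for example). Of the 7 markers 0 passed the edgeR test described below on all libraries. At an unadjusted p under 0.05 it gave 2 lower (Col1a1 and Bglap) and 1 higher (Runx2), beside 12.6% and 5.26% of all genes tested. Their log2 fold changes were -0.53, -0.79 and 0.59. The list median was -0.28 on all libraries, 0.053 with isotype 2 and 5 alone and 0.073 with the offset. Bglap alone was called lower without isotype 5.

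With anti-CSF1R, 2 members fell and 0 rose: Pstpip1, an adaptor that bends membranes and binds the Wiskott-Aldrich protein, and Itgax, the alpha chain of the leukocyte integrin CD11c. That is 5.26% of the 38 members tested, where 0.822% of the 17028 genes tested fell (edgeR quasi-likelihood test, Benjamini-Hochberg adjusted p under 0.05) and 0.0235% rose. Itgb6, an epithelial chain, was not tested, with counts of 4, 0, 8 and 4 in isotype 2 to 5 and 4, 0, 2 and 0 in anti-CSF1R 7 to 10, near the detection floor of 3 counts. At an unadjusted p under 0.05 edgeR gave 12 of 38 members lower (31.6%) and 0 higher, where 12.6% of all genes tested were lower and 5.26% higher. Limma-voom gave 14 members at that p, 2 of them higher, where 3468 of 17028 genes had such a p. At the adjusted threshold 0 members rose under every tool run (edgeR, DESeq2 and limma-voom). In 12 of the 38 members (31.6%) every anti-CSF1R library lay below every isotype library in CPM, a pattern found in 8.34% of all genes tested. Those 12 were Itgb3, Itga5, Itgb2, Itgam, Itgax, Itgad, Itgb7, Src, Ptk2b, Fermt3, Pstpip1 and Was. Only Itga8 and Arhgef6 were higher without overlap (5.26% of members), where 6.61% of all genes were. The median log2 fold change was -0.13 over the members and 0.031 over all genes tested, and 21 of the 38 members lay below zero.

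The number of members that fell depended on the controls and the tool. It was 7 with isotype 2 and 5 as the only controls (Itga2, Itgav, Itgax, Itgb3, Pstpip1, Src and Was), where 2.38% of all genes fell. It was 8 with the GC and length offset (Itgam, Itgax, Itgb2, Itgb7, Pstpip1, Ptk2b, Src and Was), where 2.18% of all genes fell. DESeq2 on all libraries called 11 (Fermt3, Itgad, Itgam, Itgax, Itgb2, Itgb3, Itgb7, Pstpip1, Ptk2b, Src and Was), where it called 3.69% of all genes lower. Leaving out isotype 2 or 5 gave 5 and 4 members (1.42% and 1.12% of all genes), and leaving out isotype 3 or 4 gave 1 and 0 (0.591% and 0.203% of all genes). Leaving out anti-CSF1R 7, 8, 9 or 10 gave 0 members by edgeR each time (0%, 0%, 0.0232% and 0.0813% of all genes), with 12 lower at an unadjusted p under 0.05 in each of these last 4 fits, where 7.4%, 6.61%, 6.48% and 6.31% of all genes were. With the skeletal muscle marker score as a covariate, edgeR called 0 members and 0 genes in the whole table (9 members were lower at an unadjusted p under 0.05, where 4.31% of all genes were). RLE factors, limma-voom, no filter and halved counts each gave 2 members, where 0.899%, 0.787%, 0.678% and 0.872% of all genes fell. Library size alone and the filter of 1 CPM gave 1 each, where 0.529% and 0.821% fell. In all these settings 0 members rose, where the share of all genes that rose was 0.869% with DESeq2, 0.0529% with limma-voom, 0.679% with isotype 2 and 5 alone and 0.493% with the offset.

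Most osteoclast and macrophage markers fell with anti-CSF1R, and most monocyte and neutrophil markers did not. The 8 osteoclast markers (such as Acp5 and Ctsk) summed to 5557 to 13239 CPM in isotype libraries and 2040 to 2784 CPM in anti-CSF1R libraries, and 6 of the 8 fell (median log2 fold change -2.15). The 9 macrophage markers (such as C1qa and Cd163) summed to 471 to 949.6 CPM and 113 to 172 CPM, and 6 of the 9 fell (median -2.13). Of the other 3, Cd163 and Timd4 had positive log2 fold changes (0.54 and 0.19), and Mrc1 had -1.95 and did not pass (adjusted p = 0.147 by edgeR). These counts were 7 of 8 and 7 of 9 with isotype 2 and 5 alone, and 1 and 4 without isotype 4. Without anti-CSF1R 7, 8, 9 and 10 they were 0 and 0, 0 and 0, 1 and 0, and 1 and 2. Of 6 monocyte markers 1 fell, the chemokine receptor Cx3cr1 (log2 fold change -1.92, adjusted p = 0.0267 by edgeR), a call lost without isotype 4, without any one of anti-CSF1R 7 to 10, with library sizes alone and with the muscle covariate. The monocyte list median was 0.014. At an unadjusted p under 0.05, 2 markers were lower and 2 higher, beside 12.6% and 5.26% of all genes tested. The higher markers, Ms4a4c and Ccr2, had log2 fold changes of 1.33 and 1.014 (adjusted p = 0.131 and 0.278 by edgeR), and DESeq2 called 2 markers lower and 1, Ms4a4c, higher. Of 8 neutrophil markers 0 fell (edgeR, 0 also at an unadjusted p under 0.05, and 0 by DESeq2 and limma-voom). Their sums were 119 to 324 CPM in isotype and 106 to 320 CPM in anti-CSF1R libraries. The neutrophil log2 fold changes ran from -1.12 (Ly6g) to 0.26 (S100a9). Their median was -0.56 on all libraries, -0.14 with isotype 2 and 5 alone and -0.25 with the offset. In bulk tissue, fewer cells of a type and less RNA per cell cannot be told apart, and the part of these marker changes in the members' differences was not tested.

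The alphaV-beta3 integrin is the osteoclast's main receptor for RGD-containing bone proteins such as osteopontin. Its beta chain Itgb3 stood at 217, 351, 332 and 213 CPM across isotype 2 to 5 and, with anti-CSF1R, at 174, 173, 168 and 144 CPM in libraries 7 to 10. Every treated library was below every control, with isotype 3 and 4 the highest. The means were 278 ± 73.3 and 165 ± 14.0 CPM (SD, n = 4 per group, here and below), a log2 fold change of -0.76 ± 0.20 (SE) that did not pass on all libraries (adjusted p = 0.159 by edgeR). Against isotype 2 and 5 alone the fold change was smaller, -0.39, and passed (adjusted p = 0.0355 by edgeR). With the GC and length offset it was -0.78 and did not pass (adjusted p = 0.0606 by edgeR), with adjusted p spanning 0.0187 to 0.738 over the alternatives.

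Its alpha chain Itgav, which also pairs with Itgb1, Itgb5, Itgb6 and Itgb8, did not follow it on all libraries. Itgav stood at 220.0, 112, 66.3 and 207 CPM across isotype 2 to 5 and, with anti-CSF1R, at 172, 177, 178 and 164 CPM in libraries 7 to 10. Isotype 3 and 4 were the lowest of all 8 libraries and isotype 2 and 5 the highest, so the groups overlapped. The log2 fold change was 0.19 ± 0.34 on all libraries (adjusted p = 0.686 by edgeR) and turned to -0.31 against isotype 2 and 5 alone (adjusted p = 0.0316 by edgeR, range over alternatives 0.0316 to 0.941). Without isotype 4 it was -0.064, and with the GC and length offset it was -0.30 (adjusted p = 0.206 by edgeR), so the direction on all libraries rested on the libraries that stood apart.

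Itgb5 pairs with alphaV in many stromal cells and in osteoclast precursors. It stood at 327, 646, 441 and 345 CPM across isotype 2 to 5 and, with anti-CSF1R, at 326, 336, 351 and 354 CPM in libraries 7 to 10. The treated libraries lay within the isotype 2 and 5 values or just outside them, and isotype 3 was the highest library. The log2 fold change was -0.36 ± 0.22 on all libraries (adjusted p = 0.312 by edgeR) and 0.021 against isotype 2 and 5 alone (adjusted p = 0.932 by edgeR) and -0.043 with the offset (adjusted p = 0.827 by edgeR), with 0.135 to 0.944 over the alternatives.

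The other RGD-binding chains did not pass in any setting. Itga5, the fibronectin receptor alpha chain, was lower without overlap, at 84.3 to 165 CPM in isotype libraries and 76.1 to 81.7 CPM in anti-CSF1R libraries (log2 fold change -0.58, adjusted p = 0.270 by edgeR). Itga8, a chain of mesenchymal cells, was higher without overlap, at 2.74 to 11.1 CPM and 11.2 to 13.4 CPM (log2 fold change 0.81, adjusted p = 0.296 by edgeR), and the fold change was 0.16 against isotype 2 and 5 alone and 0.47 with the offset. Itgb8, which with alphaV activates latent TGF-beta, had 0.429 to 2.43 CPM and 2.27 to 3.12 CPM (log2 fold change 0.86, adjusted p = 0.292 by edgeR), and the fold change was 0.25 against isotype 2 and 5 alone and 0.28 with the offset.

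Itga2b, the platelet and megakaryocyte chain that shares Itgb3 as its partner, stood at 3.94, 17.4, 6.51 and 9.13 CPM across isotype 2 to 5 and, with anti-CSF1R, at 10.3, 19.4, 10.5 and 3.53 CPM in libraries 7 to 10. The groups overlapped throughout (log2 fold change 0.24 ± 0.54, adjusted p = 0.756 by edgeR). The 6 platelet markers summed to 29.7, 71.7, 46.3 and 43.9 CPM in isotype libraries and to 42.2, 66.2, 44.6 and 23.9 CPM in anti-CSF1R libraries. Isotype 3 and anti-CSF1R 8 were the highest of their groups and isotype 2 and anti-CSF1R 10 the lowest, for the markers as for Itga2b. Of the 6 markers 0 passed (edgeR, 0 also at an unadjusted p under 0.05, and 0 by DESeq2 and limma-voom).

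**Figure D1:**
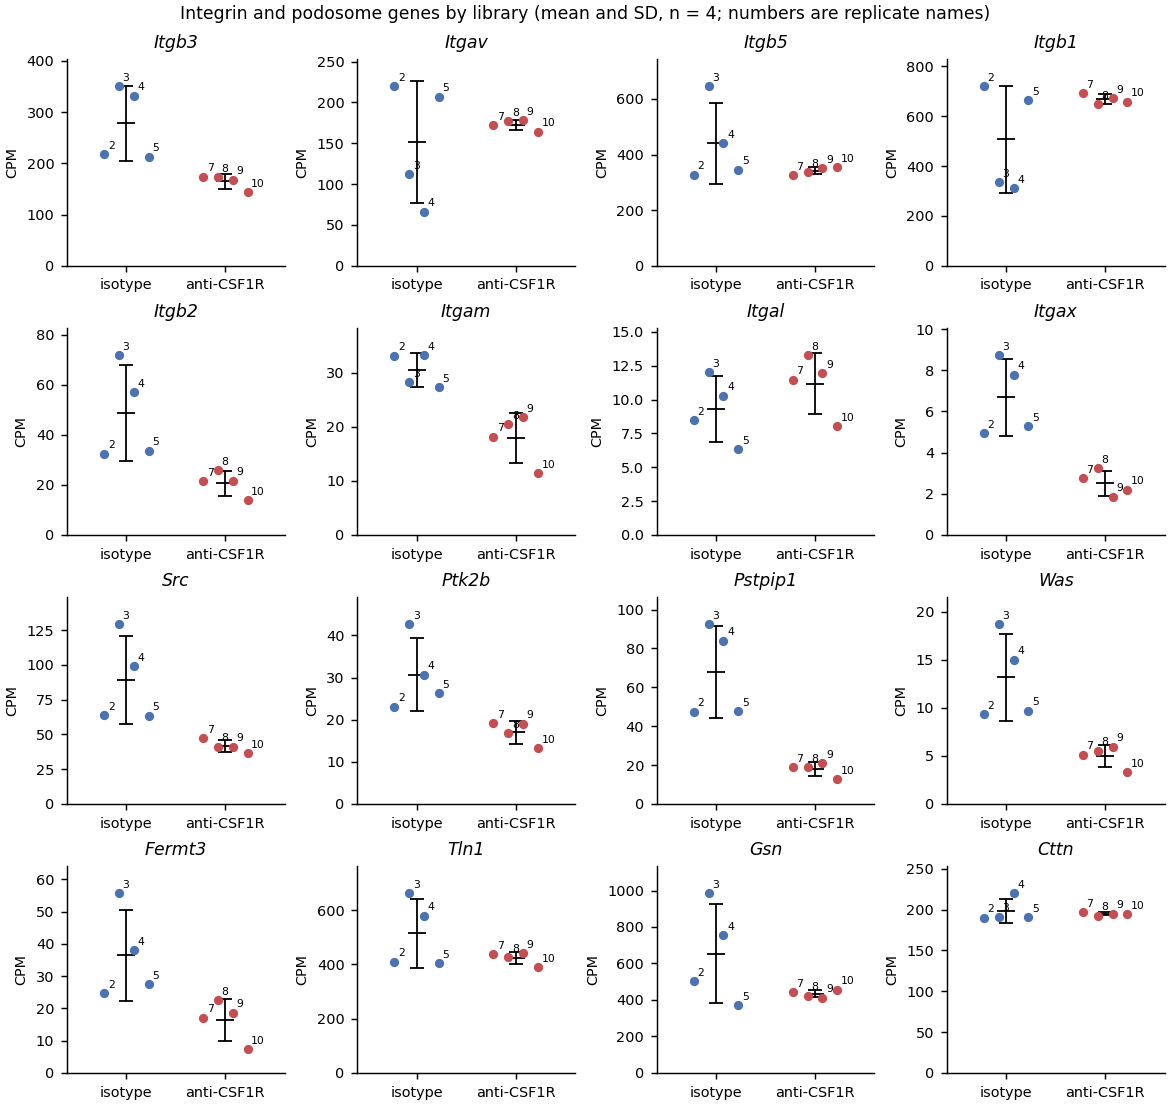
Expression (CPM, linear axes from 0) of 16 members in each library, isotype in blue and anti-CSF1R in red, with the group mean and SD (n = 4); numbers beside points are the library numbers. Itgb3, Itgb2, Itgam, Itgax, Src, Ptk2b, Pstpip1, Was and Fermt3 show every anti-CSF1R point below every isotype point, while Itgav and Itgb1 show isotype 3 and 4 below the treated libraries.

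The beta2 integrins are restricted to leukocytes and cells of leukocyte descent, and 1 of the 5 chains fell. Itgax stood at 4.95, 8.74, 7.79 and 5.29 CPM across isotype 2 to 5 and, with anti-CSF1R, at 2.75, 3.25, 1.85 and 2.20 CPM in libraries 7 to 10. All treated libraries were below all controls, and isotype 3 and 4 were the highest. The mean fell from 6.69 ± 1.87 to 2.51 ± 0.617 CPM, 2.66-fold lower, with a log2 fold change of -1.41 ± 0.26 (adjusted p = 0.0491 by edgeR). It also passed against isotype 2 and 5 alone (-1.03, adjusted p = 0.0329 by edgeR) and with the GC and length offset (-1.31, adjusted p = 0.0137 by edgeR), with adjusted p spanning 4.08e-05 to 0.294 over the alternatives. The call was lost without isotype 3 or 4 (adjusted p = 0.0940 and 0.126 by edgeR) and without anti-CSF1R 7, 8, 9 or 10 (0.157, 0.116, 0.183 and 0.196). It was also lost with library sizes alone (0.0803), the 1 CPM filter (0.0539) and the muscle covariate (0.294), all with a negative fold change.

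Itgb2, the beta chain that all alpha chains of the family share, stood at 32.5, 71.9, 57.0 and 33.7 CPM across isotype 2 to 5 and, with anti-CSF1R, at 21.3, 25.8, 21.6 and 13.8 CPM in libraries 7 to 10. The groups did not overlap, and isotype 3 and 4 were again the highest. The log2 fold change was -1.24 ± 0.30 (adjusted p = 0.117 by edgeR), -0.68 against isotype 2 and 5 alone (adjusted p = 0.234 by edgeR) and -0.98 with the GC and length offset (adjusted p = 0.0368 by edgeR), with 0.00382 to 0.638 over the alternatives. Itgam, the CD11b chain of macrophages, monocytes and neutrophils, stood at 33.2, 28.2, 33.3 and 27.3 CPM in isotype libraries and at 18.2, 20.4, 21.8 and 11.5 CPM in anti-CSF1R libraries. Here isotype 3 and 4 lay within the values of isotype 2 and 5 or close to them, and all treated libraries were lower. Its log2 fold change was -0.76 ± 0.21 (adjusted p = 0.165 by edgeR), -0.75 against isotype 2 and 5 alone (adjusted p = 0.250 by edgeR) and -0.90 with the offset (adjusted p = 0.0377 by edgeR), with 0.0151 to 0.519 over the alternatives.

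Itgal, the chain of LFA-1 on lymphocytes and many myeloid cells, differed from the other 4 in the sign of its fold change. It stood at 8.46, 12.0, 10.3 and 6.33 CPM across isotype 2 to 5 and, with anti-CSF1R, at 11.5, 13.3, 11.9 and 8.02 CPM in libraries 7 to 10. The groups overlapped, and the log2 fold change was 0.27 ± 0.24 (adjusted p = 0.421 by edgeR). Itgad, the least abundant alpha chain of the family, stood at 0.383, 1.30, 0.528 and 0.481 CPM and at 0.142, 0.211, 0.317 and 0.165 CPM, a log2 fold change of -1.66 ± 0.46 that did not pass (adjusted p = 0.177 by edgeR). Itgam, Itgax and Itgad are consecutive protein-coding genes on mouse chromosome 7, and Itgad overlaps Cox6a2, a muscle cytochrome oxidase subunit, in RefSeq on GRCm38.p6. Cox6a2 had 0.160, 0.916, 0.297 and 0.226 CPM in isotype 2 to 5 and 0.0264 to 0.144 CPM in anti-CSF1R libraries. Isotype 3 was thus the highest library for both genes, as it was for Itgb2, Itgax and other members that do not overlap Cox6a2. Since the strand setting of the counting is not given in the sources used here, reads of the 2 overlapping genes cannot be told apart.

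Among the chains that bind VCAM-1, fibronectin segments or E-cadherin, none passed on all libraries with edgeR, while DESeq2 called Itgb7. Itgb7, the leukocyte partner of Itga4 and Itgae, stood at 6.78, 19.6, 14.3 and 8.20 CPM across isotype 2 to 5 and, with anti-CSF1R, at 4.62, 4.29, 4.25 and 2.44 CPM in libraries 7 to 10. The groups did not overlap, with isotype 3 and 4 highest and anti-CSF1R 10 lowest. Its log2 fold change was -1.65 ± 0.36 (adjusted p = 0.0839 by edgeR), -0.94 against isotype 2 and 5 alone (adjusted p = 0.0680 by edgeR) and -1.25 with the offset (adjusted p = 0.0189 by edgeR). It passed without isotype 2 (adjusted p = 0.0420 by edgeR), and the range over the alternatives was 4.81e-04 to 0.480. Its partners did not show that difference: Itga4, at 3.90 to 19.1 CPM in isotype and 8.62 to 19.7 CPM in anti-CSF1R libraries, had a log2 fold change of 0.41 (adjusted p = 0.516 by edgeR). Itgae, at 2.71 to 4.36 CPM and 2.93 to 3.88 CPM, had -0.21 (adjusted p = 0.466 by edgeR). Itga9, a chain of mesenchymal and smooth muscle cells, had 25.8 to 33.3 CPM and 28.0 to 35.2 CPM (log2 fold change 0.096, adjusted p = 0.641 by edgeR).

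Itgb1, the common beta chain of collagen, laminin and fibronectin receptors, stood at 721, 335, 312 and 665 CPM across isotype 2 to 5 and, with anti-CSF1R, at 693, 647, 673 and 659 CPM in libraries 7 to 10. Isotype 3 and 4 had less than any other library, and the treated libraries lay close to isotype 2 and 5. The log2 fold change was 0.39 ± 0.28 on all libraries (adjusted p = 0.350 by edgeR) and -0.056 against isotype 2 and 5 alone (adjusted p = 0.797 by edgeR) and 0.15 with the offset (adjusted p = 0.448 by edgeR), with 0.140 to 0.897 over the alternatives.

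Of the 4 collagen-binding alpha chains and the 4 laminin-binding chains, 0 passed on all libraries (edgeR, DESeq2 and limma-voom), and 0 were among the 12 with an unadjusted edgeR p under 0.05. Itga10, a collagen receptor chain known from cartilage, had 249 to 324 CPM in isotype and 241 to 279 CPM in anti-CSF1R libraries (log2 fold change -0.16, adjusted p = 0.413 by edgeR). Itga11, a fibroblast collagen receptor chain, had 129 to 144 CPM and 135 to 159.9 CPM (0.11, adjusted p = 0.549 by edgeR). Itga1 had 22.3 to 35.7 CPM and 30.7 to 37.4 CPM (0.20, adjusted p = 0.399 by edgeR). Itga2 had 17.1 to 56.1 CPM and 36.9 to 44.3 CPM, with isotype 3 and 4 lowest and isotype 2 and 5 highest. Its log2 fold change was 0.14 on all libraries (adjusted p = 0.777 by edgeR) and -0.40 against isotype 2 and 5 alone (adjusted p = 0.0328 by edgeR, range over alternatives 0.0328 to 0.974). The laminin-binding chains Itga3, Itga6, Itga7 and Itgb4 had log2 fold changes of 0.25, 0.57, -0.16 and -0.18 (adjusted p = 0.322, 0.306, 0.544 and 0.456 by edgeR). Itga6 had the widest spread of these, at 23.8 and 27.9 CPM in isotype 4 and 3 and 62.2 to 76.4 CPM in the other 6 libraries.

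**Figure D2:**
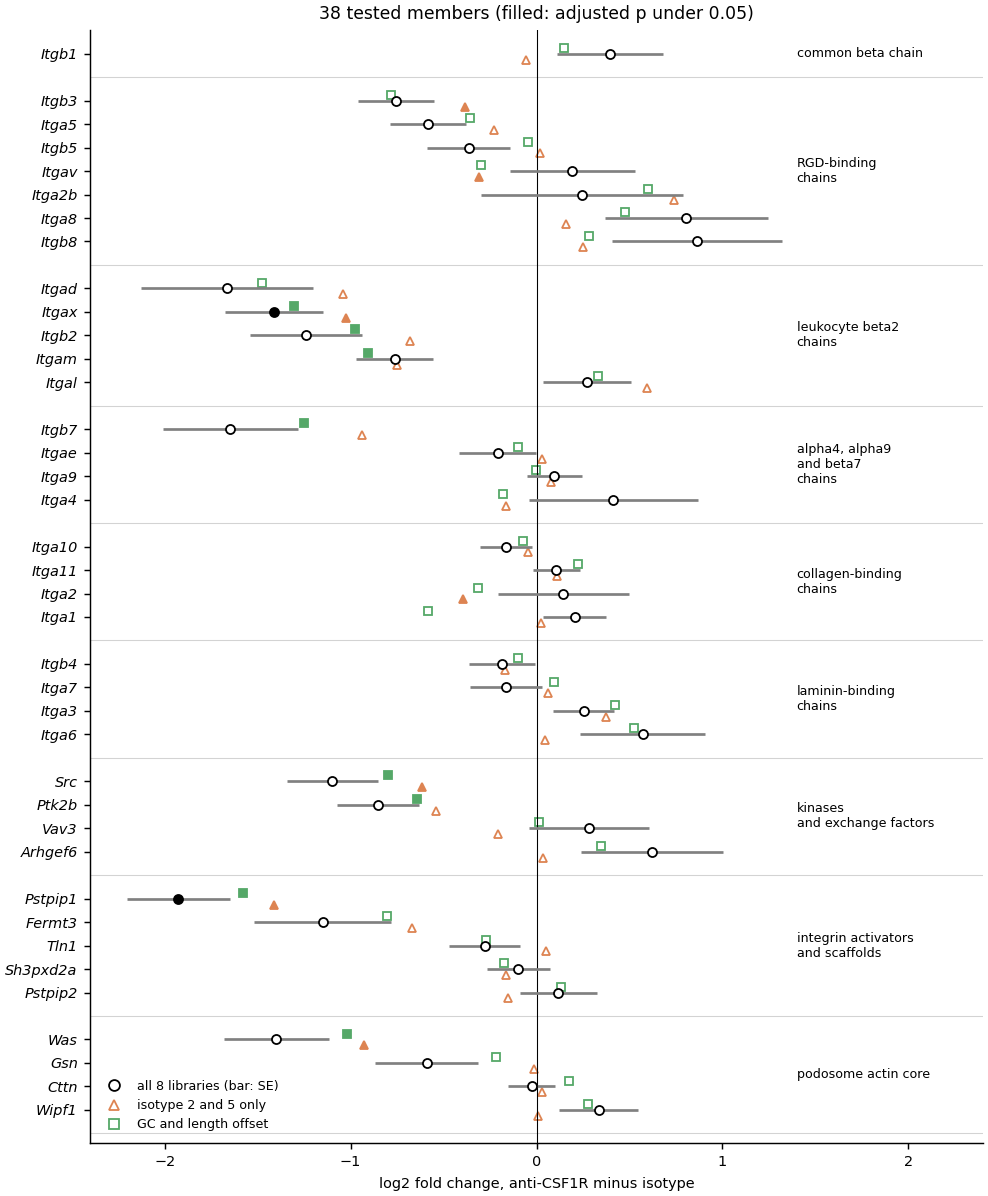
Log2 fold change (anti-CSF1R minus isotype) of the 38 tested members by class: circles with SE bars use all 8 libraries, triangles use isotype 2 and 5 as the only controls, and squares use the GC and length offset; filled symbols have an adjusted p under 0.05. Filled circles mark Pstpip1 (-1.93) and Itgax (-1.41), and Itgav has its circle right of zero (0.19) and its filled triangle left of zero (-0.31).

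Levels were compared between chains as CPM per kilobase of the longest GENCODE M21 transcript of each symbol. Itgb1 and Itgb5 were the leading beta chains, at 133 ± 56.3 and 134 ± 44.6 CPM per kb in isotype libraries and 175 ± 5.15 and 104 ± 3.91 CPM per kb in anti-CSF1R libraries. They did not differ beyond their spread in the isotype group, and they did not overlap in the anti-CSF1R group. Itgb1 was above Itgb5 in isotype 2 and 5 (189 and 174 against 99.7 and 105 CPM per kb), as in every treated library. In isotype 3 and 4, the libraries that stood apart, it was below Itgb5 (87.7 and 81.9 against 197 and 134 CPM per kb). Itgb3 came next (48.1 ± 12.7 and 28.5 ± 2.42 CPM per kb), followed by Itgb2 (16.4 ± 6.43 and 6.95 ± 1.68) and Itgb7 (4.56 ± 2.21 and 1.45 ± 0.368).

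As a share of the summed beta chain CPM per kb, Itgb3 made up 11.0%, 16.0%, 19.2% and 11.1% in isotype 2 to 5 and 9.34%, 9.53%, 9.01% and 7.96% in anti-CSF1R 7 to 10. Itgb2 made up 3.20%, 6.39%, 6.41% and 3.41% and then 2.23%, 2.77%, 2.26% and 1.49%. Both shares were lower in every treated library than in any control. Itgb1 made up 55.4%, 23.2%, 27.3% and 52.4% in isotype libraries and 54.1% to 56.5% in anti-CSF1R libraries, so isotype 3 and 4 alone differed from the rest. Among alpha chains Itga10 was the highest per kb (56.6 ± 6.22 CPM per kb in isotype and 50.5 ± 3.39 in anti-CSF1R libraries). Itga11 (27.6 ± 1.49 and 29.7 ± 2.04), Itga5 (26.7 ± 7.94 and 17.8 ± 0.523) and Itgav (21.4 ± 10.5 and 24.5 ± 0.889) followed, and these 3 did not differ beyond their spread in the isotype group.

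**Figure D3:**
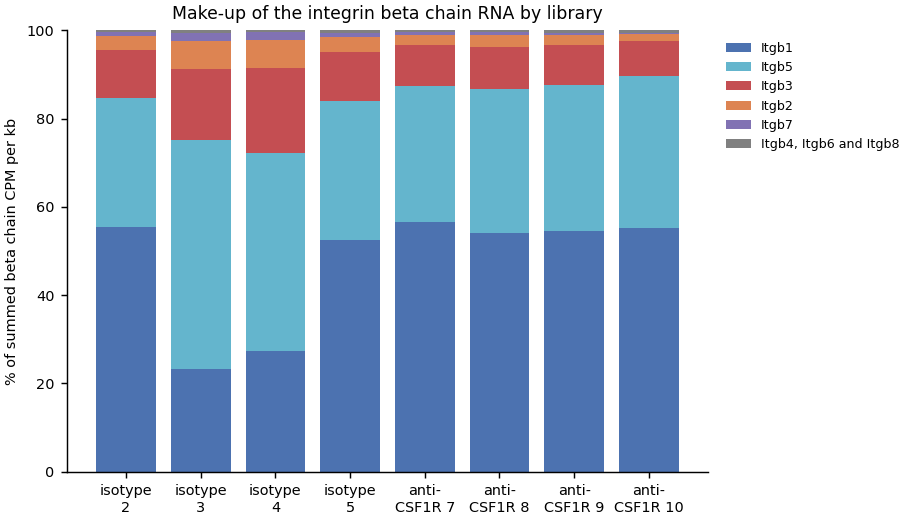
Share (%) of the summed beta chain CPM per kb taken by each beta chain in each of the 8 libraries, as stacked bars from 0. Itgb1 is near 55% in all libraries except isotype 3 (23.2%) and 4 (27.3%), and the Itgb3 band narrows from 11.0% to 19.2% in isotype libraries to 7.96% to 9.53% in anti-CSF1R libraries.

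Src, the kinase without which osteoclasts fail to form a ruffled border, stood at 63.7, 129, 99.0 and 63.4 CPM across isotype 2 to 5 and, with anti-CSF1R, at 47.2, 41.2, 41.3 and 36.3 CPM in libraries 7 to 10. Every treated library was below every control, and isotype 3 and 4 were the highest. The means were 88.8 ± 31.7 and 41.5 ± 4.44 CPM, a log2 fold change of -1.10 ± 0.25 that did not pass on all libraries (adjusted p = 0.0876 by edgeR). Against isotype 2 and 5 alone it was -0.62 and passed (adjusted p = 0.00595 by edgeR), as it did with the GC and length offset (-0.80, adjusted p = 0.0115 by edgeR), with adjusted p spanning 0.00216 to 0.530 over the alternatives. Leaving out isotype 2 or isotype 5 also brought it past the threshold (adjusted p = 0.0485 and 0.0497 by edgeR).

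Ptk2b, the Pyk2 kinase that binds Src at the podosome, stood at 23.1, 42.7, 30.7 and 26.3 CPM across isotype 2 to 5 and, with anti-CSF1R, at 19.1, 16.7, 19.0 and 13.2 CPM in libraries 7 to 10. The groups did not overlap. Its log2 fold change was -0.85 ± 0.22 (adjusted p = 0.143 by edgeR), -0.54 against isotype 2 and 5 alone (adjusted p = 0.0980 by edgeR) and -0.65 with the offset (adjusted p = 0.0414 by edgeR), with 0.0129 to 0.757 over the alternatives. The exchange factors gave no such difference. Vav3, which activates Rac downstream of alphaV-beta3, had 2.44 to 6.83 CPM in isotype and 5.12 to 6.18 CPM in anti-CSF1R libraries (log2 fold change 0.28, adjusted p = 0.533 by edgeR). Arhgef6, a Rac and Cdc42 exchange factor, had 78.7 and 78.8 CPM in isotype 2 and 5, 29.2 and 23.3 CPM in isotype 3 and 4, and 79.4 to 82.7 CPM in anti-CSF1R libraries (0.62, adjusted p = 0.313 by edgeR). Its fold change against isotype 2 and 5 alone was 0.035.

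Pstpip1 had the lowest fold change of the set. It stood at 47.5, 92.5, 83.9 and 47.6 CPM across isotype 2 to 5 and, with anti-CSF1R, at 18.8, 18.9, 21.0 and 12.7 CPM in libraries 7 to 10. All treated libraries lay far below all controls, with isotype 3 and 4 the highest. The mean fell from 67.9 ± 23.7 to 17.8 ± 3.59 CPM, 3.80-fold lower, with a log2 fold change of -1.93 ± 0.28 (adjusted p = 0.0233 by edgeR). Against isotype 2 and 5 alone it was -1.41 (adjusted p = 0.0104 by edgeR) and with the offset -1.58 (adjusted p = 0.00174 by edgeR), with adjusted p spanning 1.65e-08 to 0.152 over the alternatives. The fold change was negative in every setting, but the call was lost without isotype 4 (adjusted p = 0.0619 by edgeR), without anti-CSF1R 7, 8, 9 or 10 (0.0930, 0.106, 0.0882 and 0.0879) and with the muscle covariate (0.152). Its relative Pstpip2, a brake on osteoclast fusion and inflammation, did not follow: it had 4.62 to 8.04 CPM in isotype and 6.31 to 7.79 CPM in anti-CSF1R libraries (log2 fold change 0.12, adjusted p = 0.690 by edgeR).

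Fermt3, the kindlin of blood cells and osteoclasts, stood at 24.7, 55.7, 38.0 and 27.6 CPM across isotype 2 to 5 and, with anti-CSF1R, at 17.2, 22.5, 18.7 and 7.33 CPM in libraries 7 to 10. The groups did not overlap, but anti-CSF1R 8 came close to isotype 2. Its log2 fold change was -1.15 ± 0.37 (adjusted p = 0.242 by edgeR) and -0.67 against isotype 2 and 5 alone (adjusted p = 0.586 by edgeR) and -0.80 with the offset (adjusted p = 0.156 by edgeR), with 0.0413 to 0.897 over the alternatives. In RefSeq on GRCm38.p6 Fermt3 overlaps Trpt1. Tln1, the talin that nearly all adherent cells use, had 406 to 663 CPM in isotype and 391 to 441 CPM in anti-CSF1R libraries (log2 fold change -0.28, adjusted p = 0.337 by edgeR). Sh3pxd2a, the podosome scaffold TKS5, had 427 to 662 CPM and 498 to 566 CPM (-0.098, adjusted p = 0.682 by edgeR).

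In the actin core, Was stood at 9.32, 18.7, 15.0 and 9.68 CPM across isotype 2 to 5 and, with anti-CSF1R, at 5.11, 5.55, 5.97 and 3.32 CPM in libraries 7 to 10. Every treated library was below every control. Its log2 fold change was -1.40 ± 0.28 on all libraries (adjusted p = 0.0690 by edgeR), -0.93 against isotype 2 and 5 alone (adjusted p = 0.0423 by edgeR) and -1.02 with the offset (adjusted p = 0.0122 by edgeR), with 2.20e-04 to 0.402 over the alternatives. Without isotype 2 or isotype 5 it passed (adjusted p = 0.0420 and 0.0461 by edgeR). Its stabilising partner Wipf1, which many cell types express, had 36.1 to 62.1 CPM in isotype and 56.1 to 67.7 CPM in anti-CSF1R libraries (log2 fold change 0.33, adjusted p = 0.320 by edgeR). Cttn, the cortactin of most adherent cells, had 190.3 to 220.1 CPM and 192 to 197 CPM (-0.025, adjusted p = 0.893 by edgeR). Gsn, which severs and caps actin filaments, had 504, 985, 755 and 372 CPM in isotype 2 to 5 and 413 to 456 CPM in anti-CSF1R libraries. Isotype 5 was below every treated library for Gsn, and the log2 fold change was -0.59 ± 0.28 on all libraries (adjusted p = 0.281 by edgeR) and -0.015 against isotype 2 and 5 alone (adjusted p = 0.972 by edgeR). Per kilobase Gsn was the most abundant podosome gene (247 ± 103 CPM per kb in isotype and 164 ± 7.44 in anti-CSF1R libraries), while Src had 22.7 ± 8.12 and 10.6 ± 1.14, and Pstpip1 24.1 ± 8.42 and 6.32 ± 1.27.

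Within-library differences asked whether a chain or a leukocyte paralog differed between groups by more than its partner, and they do not depend on how libraries are scaled. Each is the log2 CPM of the first gene minus that of the second, tested by an exact two-sided permutation over 70 assignments, with p adjusted over the 6 differences. The smallest p possible is 0.0286, which becomes 0.0571 after adjustment where 3 differences reach it, so none could pass on all libraries in that case.

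Ptk2b minus Ptk2 compared Pyk2 with the broadly expressed focal adhesion kinase, which had 114, 58.4, 55.9 and 113 CPM in isotype 2 to 5 and 115 to 131 CPM in anti-CSF1R libraries. The difference was -2.30, -0.45, -0.86 and -2.10 in isotype libraries and -2.69, -2.78, -2.74 and -3.30 in anti-CSF1R libraries. The groups did not overlap: the group means differed by -1.45 (exact permutation p = 0.0286, adjusted p = 0.0571), by -0.68 with isotype 2 and 5 as the only controls and by -0.998 with the offset. Fermt3 minus Fermt2 compared kindlin-3 with the kindlin of stromal cells, which had 121, 55.3, 50.4 and 114 CPM in isotype 2 to 5 and 125 to 133 CPM in anti-CSF1R libraries. The difference was -2.29, 0.011, -0.41 and -2.04 in isotype and -2.86, -2.48, -2.81 and -4.17 in anti-CSF1R libraries. These groups did not overlap either, with means that differed by -1.90 (exact permutation p = 0.0286, adjusted p = 0.0571), by -0.91 with isotype 2 and 5 alone and by -1.37 with the offset.

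Itgb3 minus Itgb5 was -0.59, -0.88, -0.41 and -0.70 in isotype 2 to 5 and -0.91, -0.96, -1.06 and -1.30 in anti-CSF1R 7 to 10. Every treated value was below every control value, and isotype 3 was close to anti-CSF1R 7. The means differed by -0.41 (exact permutation p = 0.0286, adjusted p = 0.0571), and by the same -0.41 with isotype 2 and 5 alone, where the smallest p possible is 0.0667. With the GC and length offset they differed by -0.71 (exact permutation p = 0.0286, adjusted p = 0.0571). Itgb3 minus Itgav was near zero in isotype 2 and 5 (-0.018 and 0.042), 1.65 and 2.32 in isotype 3 and 4, and -0.19 to 0.015 in anti-CSF1R libraries. Its group difference of -1.07 (exact permutation p = 0.0571, adjusted p = 0.0857) was -0.084 with isotype 2 and 5 alone and -0.46 with the offset. The group difference between the 2 chains of the osteoclast receptor was thus close to zero without isotype 3 and 4.

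Within the beta2 family, Itgb2 minus Itgam differed by -0.39 (exact permutation p = 0.286, adjusted p = 0.286) and Itgax minus Itgam by -0.60 (exact permutation p = 0.171, adjusted p = 0.206), with overlapping groups in both, and by -0.045 and -0.37 with the offset. Without isotype 2, the adjusted exact permutation p was 0.0429 for Itgb3 minus Itgav (-1.41), Itgb3 minus Itgb5 (-0.39), Ptk2b minus Ptk2 (-1.74) and Fermt3 minus Fermt2 (-2.27), and in the other settings that left out a library it did not fall below the threshold.

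**Figure D4:**
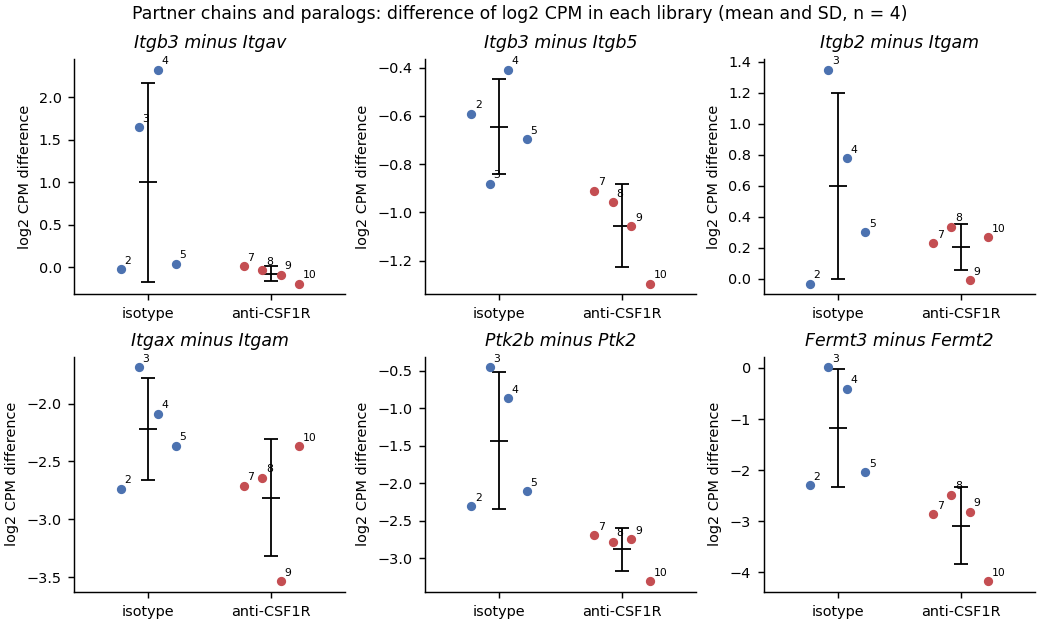
Difference in log2 CPM between the 2 genes of each pair in each library (points, with library numbers), isotype in blue and anti-CSF1R in red, with mean and SD (n = 4). Ptk2b minus Ptk2, Fermt3 minus Fermt2 and Itgb3 minus Itgb5 show all anti-CSF1R points below all isotype points, and Itgb3 minus Itgav shows isotype 3 and 4 alone near 1.65 and 2.32.

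The rest of the pathway was read from 5 lists of genes that are no members. In the gelsolin family 1 of 7 genes fell: Scin, an actin-severing protein of osteoclasts and secretory cells, at 15.8 ± 2.09 CPM in isotype and 3.90 ± 0.972 CPM in anti-CSF1R libraries. Scin was 4.05-fold lower (log2 fold change -2.02 ± 0.21, adjusted p = 0.0122 by edgeR), and -1.84 with isotype 2 and 5 alone (adjusted p = 0.00141 by edgeR, range over alternatives 5.53e-16 to 0.0804). Its call was lost without anti-CSF1R 7, 8 or 9 (adjusted p = 0.0503, 0.0804 and 0.0581 by edgeR) and with the muscle covariate (0.0701). Capg, the macrophage-capping protein, joined it with isotype 2 and 5 alone, with the offset, with DESeq2 and without isotype 2 or isotype 5 (2 of 7 in each) but not on all libraries (adjusted p = 0.0839 by edgeR). It is named outside the rule, after its values were seen.

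Of 21 genes for actin nucleation and bundling 1 fell, Lcp1, the leukocyte plastin that bundles actin, from 145 ± 15.1 to 74.3 ± 13.0 CPM (log2 fold change -0.96 ± 0.17, adjusted p = 0.0389 by edgeR). Isotype 3 and 4 were the lowest controls for Lcp1 (129 and 135 CPM, against 156 and 159 CPM in isotype 2 and 5), and all treated libraries were lower (54.9 to 83.0 CPM). With isotype 2 and 5 alone it was -1.09 (adjusted p = 0.0182 by edgeR, range over alternatives 2.21e-06 to 0.168). The call was lost without isotype 4 or 5 (adjusted p = 0.0844 and 0.0511 by edgeR), without anti-CSF1R 7, 8, 9 or 10 (0.138, 0.140, 0.132 and 0.126), with library sizes alone (0.134) and with the muscle covariate (0.168). At an unadjusted p under 0.05 edgeR gave 8 of the 21 genes lower and 1 higher, beside 12.6% and 5.26% of all genes tested. Myo1f, a myosin of immune cells, joined Lcp1 with the GC and length offset, and DESeq2 called Hcls1, Lcp1, Myo1f and Wipf3 (3 lower and 1 higher). These genes beside Lcp1 are named after their values were seen.

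Of 16 Src-family kinases and adaptors 1 fell, Syk, the kinase that couples integrins and immune receptors in osteoclasts, from 54.4 ± 13.3 to 23.4 ± 4.55 CPM (log2 fold change -1.22 ± 0.22, adjusted p = 0.0481 by edgeR). It was -0.88 with isotype 2 and 5 alone and did not pass there (adjusted p = 0.0574 by edgeR, range over alternatives 5.52e-05 to 0.276). The Syk call was also lost without isotype 3 or 4 (adjusted p = 0.0940 and 0.119 by edgeR) and without anti-CSF1R 7, 8, 9 or 10 (0.159, 0.142, 0.158 and 0.164). Library sizes alone (0.0682), the 1 CPM filter (0.0515) and the muscle covariate (0.276) ended it as well. The list had 3 genes lower with the GC and length offset (Syk, Ptpn6 and Lcp2), and 2 with DESeq2 and without isotype 2 or isotype 5 (Syk and Ptpn6). With isotype 2 and 5 alone the 1 gene called was Lcp2. Ptpn6 and Lcp2 are named after their values were seen, with log2 fold changes of -1.37 and -0.41 on all libraries (adjusted p = 0.0642 and 0.278 by edgeR).

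In the remaining lists 0 genes passed on all libraries. Of 23 focal adhesion linkers edgeR gave 2 lower and 1 higher at an unadjusted p under 0.05, beside 12.6% and 5.26% of all genes, and DESeq2 and limma-voom called 0. With isotype 2 and 5 alone 1 linker, Nedd9, was called higher. The most abundant of them were Actn4, a crosslinker of actin at adhesions (log2 fold change -0.34, adjusted p = 0.295 by edgeR), and Tns3, a tensin (0.077, adjusted p = 0.711 by edgeR), with -0.027 to 0.23 over the alternatives. Of 15 integrin ligands edgeR gave 1 lower and 1 higher at that unadjusted p, and DESeq2 and limma-voom called 0. Spp1, the osteopontin that alphaV-beta3 binds, had 16451, 6049.6, 4844 and 15206 CPM in isotype 2 to 5 and 16045 to 20872 CPM in anti-CSF1R libraries (0.73, adjusted p = 0.293 by edgeR). Tnc, tenascin C, had a log2 fold change of 0.22 (adjusted p = 0.324 by edgeR). The list medians were 0.035 for focal adhesion linkers, -0.25 for actin nucleation and bundling, -0.17 for the gelsolin family, -0.029 for Src-family kinases and adaptors and -0.020 for ligands, beside 0.031 over all genes tested.

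**Figure D5:**
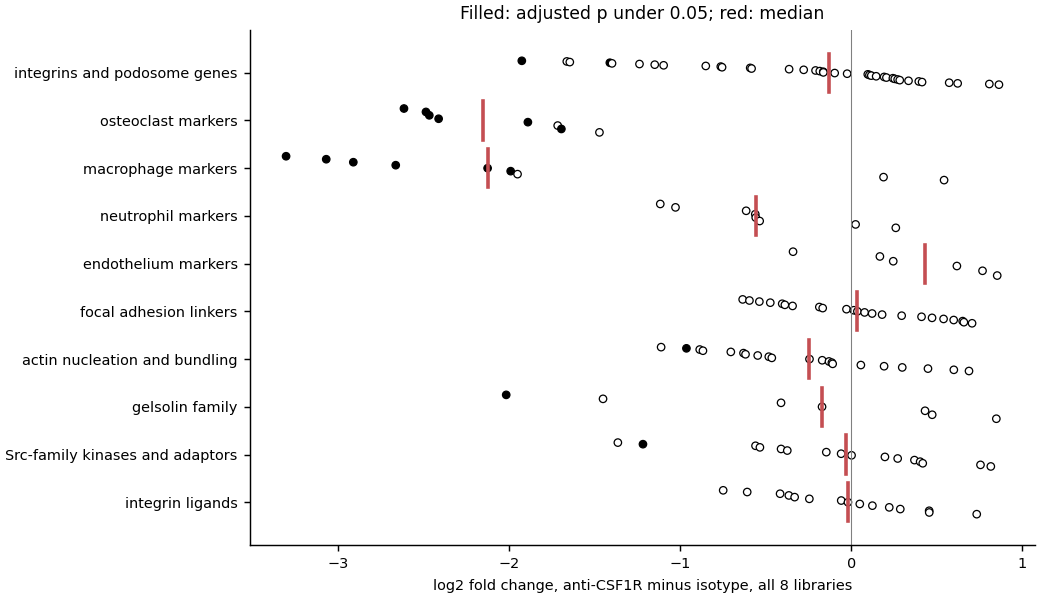
Log2 fold change (anti-CSF1R minus isotype, all 8 libraries) of each tested gene in the member set, 4 marker lists and 5 pathway lists; filled points have an edgeR adjusted p under 0.05 and the red bar is the list median. The osteoclast and macrophage marker medians lie at -2.15 and -2.13, and the member median at -0.13.

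Other cell types that express these chains differed as follows. Endothelial markers summed to 427 to 479.9 CPM in isotype and 536 to 617 CPM in anti-CSF1R libraries without overlap, although 0 of 6 passed (edgeR, with 3 higher at an unadjusted p under 0.05, and 0 by DESeq2 and limma-voom; Emcn alone was called higher with isotype 2 and 5 alone). Skeletal muscle markers summed to 26.4, 67.8, 8.07 and 6.33 CPM in isotype 2 to 5 and 6.87 to 7.07 CPM in anti-CSF1R libraries, with isotype 2 and 3 above the other 6 libraries. Of the 6 muscle markers tested edgeR called 0 (4 lower at an unadjusted p under 0.05, list median -2.41), limma-voom 0 and DESeq2 4 lower (Acta1, Ckm, Mylpf and Tnnc2). Over all genes tested, edgeR gave 12.6% lower and 5.26% higher at that unadjusted p, and DESeq2 called 3.69% lower. The 6 dendritic markers summed to 69.4 to 114 CPM and 75.2 to 80.7 CPM, B-cell markers to 22.0 to 35.4 CPM and 17.3 to 33.3 CPM, and T and NK markers to 0.846 to 2.31 CPM and 0.660 to 1.18 CPM. Of these lists 0 genes passed edgeR's threshold on all libraries. Zbtb46 made up most of each dendritic sum (94.1 CPM in isotype 3 and 68.3 CPM in anti-CSF1R 10, for example). DESeq2 called the dendritic marker Cd209a lower (log2 fold change -1.62, adjusted p = 0.224 by edgeR). Without isotype 5 edgeR called the dendritic marker Clec9a higher (1.26 on all libraries). Smooth muscle markers summed to 216 to 345 CPM and 329 to 354 CPM, epithelial markers to 13.8 to 17.5 CPM and 18.2 to 25.2 CPM, and Schwann and neural markers to 3.93 to 7.75 CPM and 6.04 to 9.64 CPM. None of the marker genes was at 0 in all libraries, and the part of these lists in the members' differences was not tested.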

How the data were processed

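Poly(A) RNA of parietal bone was sequenced in 8 libraries, 4 per group. The labels' protocols give 1 µg of input RNA, the TruSeq Stranded mRNA kit, a NovaSeq instrument, paired-end 101 bp reads and 6 Gb for each library. The values are raw counts per gene symbol, as the authors deposited them in 1 table. STAR 2.7.10b and featureCounts 1.6.3 come from the submitters' processing notes, which name GRCm38 and GRCm39 without saying what each was used for. Which annotation and strand setting were used, and how multi-mapped reads were handled, is not given in the sources used here. Of the members, 19 of 39 overlap another gene in RefSeq on GRCm38.p6, so their counts and those of near-identical genes carry that uncertainty. Between 82.8% and 84.7% of counts from 1 to 10 were even, a pattern that counting both mates of a pair gives, so fragments may number fewer than the counts.

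The members and all gene lists were chosen with earlier results of these data known. Genes were filtered with filterByExpr, scaled by TMM and tested over the whole table with edgeR 4.0.16 in R 4.3.3 (robust quasi-likelihood F-test, Benjamini-Hochberg, threshold 0.05). CPM uses TMM library sizes, fold changes are log2 values, and SE is the log2 fold change divided by the square root of F. The floor of 3 counts, 0.0396 to 0.0573 CPM, reflects counting error alone. The 6 differences used log2 CPM with a prior count of 2. Replicate pairs differed by at least 3.92 times counting noise (median squared difference, 8632 genes of mean count 1000 or more), and none was an identical copy. If both mates of a pair were counted, counting noise would be larger and that multiple smaller. Values by library are given for members past the threshold, the best known chain of each class and both genes of each difference, and for other members where they add to these. From each pathway list up to 3 genes past the threshold are named, or the 2 with the highest CPM. A further pathway list is not reported here. Where other genes or members are given in more detail, they were picked after their values were seen. Alternatives were DESeq2 1.42.0, limma-voom (limma 3.58.1), RLE factors, library sizes without factors, no filter, a filter of 1 CPM in 4 libraries, isotype 2 and 5 as the only controls, the muscle score as a covariate, counts halved, a prior count of 0.5 and leaving out each library. The offset for GC content and length used natural splines with 5 degrees of freedom on the longest GENCODE M21 transcript of a symbol, which 94.0% of tested genes had. For Lcp1, Scin, Syk, Ptk2 and Fermt2 the alternatives were added after seeing the data. The fit was also run on simulated data drawn from the anti-CSF1R means. Those data lack the GC-linked shift of isotype 3 and 4, so that run is no check on calls affected by the shift. Figures were drawn with matplotlib 3.10.9 in Python 3.11.15.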

Additional observations from a re-analysis of the deposited data

Results flagged for a closer look

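In 4 of the 78 groups of 4 libraries checked (39 members in each group of libraries), 1 library lay far from the other 3, by a gap that exceeded Dixon's critical share of the group's range. Chance alone marks about 1 in 20 groups. Itgad was highest in isotype 3 at 1.30 CPM, with 0.528 CPM next. Cttn was highest in isotype 4 at 220.1 CPM, with 191 CPM next. Itgae was highest in anti-CSF1R 7 at 3.88 CPM, with 3.06 CPM next. Itgb7 was lowest in anti-CSF1R 10 at 2.44 CPM, with 4.25 CPM next.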

How the results depend on the processing

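The number of members that fell, 2 on all libraries, was 1 with library size alone, 1 with the filter of 1 CPM, 11 with DESeq2, 7 with isotype 2 and 5 alone, 8 with the GC and length offset, 0 with the muscle covariate, and 0 to 5 when 1 library was left out. The share of all genes that fell moved as well. It was 0.822% on all libraries, then 0.529%, 0.821%, 3.69%, 2.38%, 2.18% and 0% in that order. When 1 library was left out it was 0% to 1.42%. No member rose in any of these settings. No paired analysis was possible because the groups share no replicate numbers. With isotype 2 and 5 alone, log2 fold changes that turned sign were -0.056 for Itgb1, -0.31 for Itgav, 0.021 for Itgb5, 0.031 for Itgae, -0.16 for Itga4, -0.40 for Itga2, 0.063 for Itga7, -0.21 for Vav3, 0.054 for Tln1, -0.15 for Pstpip2 and 0.030 for Cttn. In that setting Itgb2 minus Itgam was 0.071, Itgb3 minus Itgav -0.084, Ptk2b minus Ptk2 -0.68 and Fermt3 minus Fermt2 -0.91. With the offset, Itgav was -0.30, Itga4 -0.18, Itga9 -0.0022, Itga1 -0.59, Itga2 -0.31, Itga7 0.094 and Cttn 0.17. With the muscle covariate, Itga9 was -0.041, Itga2 -0.060, Itga7 0.055 and Pstpip2 -0.093. With library size alone, which moved the median of all genes from 0.031 to 0.19, Itga10 was 0.0056, Itga7 0.015, Sh3pxd2a 0.051 and Cttn 0.14. Leaving out 1 library gave ranges that cross zero of -0.064 to 0.41 for Itgav, -0.19 to 0.74 for Itga2b, -0.100 to 0.42 for Itga2, -0.31 to 0.022 for Itga7, -0.020 to 0.21 for Pstpip2 and -0.074 to 0.016 for Cttn. The differences then ran from -1.41 to -0.63 for Itgb3 minus Itgav, -0.49 to -0.33 for Itgb3 minus Itgb5, -1.74 to -1.12 for Ptk2b minus Ptk2 and -2.27 to -1.50 for Fermt3 minus Fermt2. The cause of these shifts was not tested, and none of the members listed as turning sign had passed on all libraries. For Lcp1, Scin and Syk, whose alternatives were added after seeing the data, the fold change stayed below zero in every setting. Counts limit Itgb6, Itgad and the lymphocyte markers, which lay near the floor or at a few CPM.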
